A study of Homo sapiens with 6 samples.

Results

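The genes described here are 32 transcripts of glucose metabolism and of the transcriptional response to low oxygen, chosen by symbol from a table of 23686 genes. They comprise 4 transporters of glucose and lactate, 9 enzymes of upper glycolysis, 6 of lower glycolysis, 2 lactate dehydrogenase subunits, 3 regulators of flux and 8 hypoxia response genes. Their RNA was measured by RNA sequencing in 6 libraries from the human non-small cell lung carcinoma lines HCC15 and A427, both given the genotype WT in the labels. Either line contributed 1 library each for LGR6 siRNA 2, for LGR6 siRNA 4 and for a control siRNA named Tax, and the cells were harvested 48 h after transfection from RPMI medium containing 5% serum. The silenced gene, LGR6, encodes a cell surface receptor of R-spondins, which amplify Wnt signals. The labels record no oxygen, glucose or hypoxia treatment for any library.

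Glycolysis splits glucose into pyruvate in the cytosol, and lactate dehydrogenase turns pyruvate into lactate, which leaves the cell through monocarboxylate transporters. Many tumour cells use this route heavily even where oxygen is present. When oxygen is low, hypoxia-inducible factor (HIF) escapes hydroxylation and degradation, binds short DNA elements with the core ACGTG or GCGTG, and raises many glycolytic genes together with genes of blood vessel growth, mitophagy and pH control.

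Promoters are shown for PGK1, LDHA and LDHB, which passed the threshold in at least 1 comparison of single siRNAs, and for SLC2A1, whose fold between the lines was the largest apart from EGLN3. PFKP, which passed as well, has 4 windows and is not shown. SLC2A3, SLC16A1, VEGFA and NDRG1 passed too, but no RefSeq window was matched for them. Each sequence is a RefSeq window on GRCh38.p14 of 250 bases before and 50 after an annotated start, printed 5′ to 3′ along the gene, and capitals mark each ACGTG or GCGTG, or its reverse complement CACGT or CACGC. PGK1 encodes phosphoglycerate kinase, LDHA and LDHB the subunits of lactate dehydrogenase, and SLC2A1 the glucose transporter GLUT1. The windows are chrX:78103998-78104297 on the plus strand for PGK1, chr11:18394313-18394612 on the plus strand for LDHA, chr12:21657793-21658092 on the minus strand for LDHB and chr1:42958819-42959118 on the minus strand for SLC2A1.
PGK1: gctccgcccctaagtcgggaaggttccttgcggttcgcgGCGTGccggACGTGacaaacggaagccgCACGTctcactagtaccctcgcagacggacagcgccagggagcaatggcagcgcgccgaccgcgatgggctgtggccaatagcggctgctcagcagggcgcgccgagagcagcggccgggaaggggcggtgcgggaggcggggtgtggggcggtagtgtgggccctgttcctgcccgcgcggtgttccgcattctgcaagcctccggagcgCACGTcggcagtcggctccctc
LDHA: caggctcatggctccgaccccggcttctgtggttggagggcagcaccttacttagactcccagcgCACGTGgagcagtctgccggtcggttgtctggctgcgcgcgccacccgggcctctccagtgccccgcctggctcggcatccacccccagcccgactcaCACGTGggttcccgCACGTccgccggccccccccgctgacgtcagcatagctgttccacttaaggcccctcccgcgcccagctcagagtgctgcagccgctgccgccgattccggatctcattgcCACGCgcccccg
LDHB: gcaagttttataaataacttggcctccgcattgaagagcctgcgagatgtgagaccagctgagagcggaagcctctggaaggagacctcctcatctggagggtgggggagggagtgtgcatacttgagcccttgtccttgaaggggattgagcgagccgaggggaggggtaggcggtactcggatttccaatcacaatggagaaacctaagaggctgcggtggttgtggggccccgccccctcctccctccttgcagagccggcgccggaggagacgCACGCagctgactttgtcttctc
SLC2A1: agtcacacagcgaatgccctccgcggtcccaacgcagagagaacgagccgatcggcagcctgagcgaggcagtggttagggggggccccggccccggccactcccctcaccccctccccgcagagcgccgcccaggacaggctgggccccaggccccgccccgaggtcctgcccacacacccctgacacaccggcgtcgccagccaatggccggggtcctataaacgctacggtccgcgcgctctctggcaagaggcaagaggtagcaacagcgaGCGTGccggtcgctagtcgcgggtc
Counting both strands, ACGTG occurred 3 times in the PGK1 window and 5 times in this LDHA window, where each of the palindromes CACGTG counts on both strands. A second LDHA window, chr11:18396101-18396400 on the plus strand, is not shown and had 0 ACGTG and 1 GCGTG. In the other windows shown, ACGTG occurred 0 times, and GCGTG occurred 1 time in each of the 4 windows printed. RefSeq windows were matched for 28 members, which have 55 windows in all. At least 1 of ACGTG and GCGTG stood in 67.3% of these 55 windows and in 48.4% of all 35116 windows. For ACGTG alone the shares were 38.2% of the members' windows and 21.4% of all windows, and for GCGTG 41.8% and 36.5%. Of the 28 members, 26 had a match in at least 1 window, and EGLN3 and PGAM1 had none. Members had 1 to 7 windows each, and more windows give more chances of a match. The share by gene over all genes was not computed, so this count has no background beside it. A match is a description of the letters and not a binding site, and no match says nothing of the factor.

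The libraries held 25546438 to 28987906 reads, so a gene at 0 reads could lie up to a limit of 3 reads, or 0.103 to 0.117 CPM of library size. LGR6 had 39 reads with siRNA 2, 77 with siRNA 4 and 257 with the control siRNA in HCC15. In A427 it had 0 reads with either LGR6 siRNA and 5 with the control, so silencing could be followed by reads in HCC15 and hardly in A427. Of 5 epithelial markers, KRT8 and KRT18 stood at 275.57 to 4071.78 TPM in every library. EPCAM had 27.57 to 53.85 TPM in HCC15 and 402.95 to 457.08 TPM in A427, while CDH1 had 5.64 to 45.97 TPM in HCC15 and 3.11 to 3.52 TPM in A427, and KRT19 had 12.05 to 36.74 TPM in HCC15 and 0.18 to 0.38 TPM in A427. Of 3 lung lineage markers, NKX2-1 and SFTPB reached at most 0.11 TPM and NAPSA at most 1.36 TPM. Of 3 squamous markers, TP63 and KRT5 reached at most 0.07 TPM, and SOX2 had 0.0 to 0.06 TPM in HCC15 and 1.5 to 2.93 TPM in A427. Of 6 markers of leukocytes, endothelium and stroma, CD3E was listed at 0 in all libraries, and PECAM1 and CDH5 reached at most 0.02 TPM. PTPRC, a leukocyte marker, had 0.0 TPM in HCC15 and 1.22 to 1.58 TPM in A427, and PDGFRB reached at most 0.44 TPM. COL1A1 had 4.72 to 7.05 TPM in HCC15 and 7.15 to 10.86 TPM in A427. It made up most of the summed level of the 6, which was 4.79 to 7.25 TPM in HCC15 and 8.52 to 12.6 TPM in A427. Whether the libraries are separate cultures is not stated in the labels, and every combination of line and siRNA was sequenced once, so no p-value measures replicate spread. The fit of line plus siRNA takes as its spread the disagreement of the lines over the siRNA effects. In these bulk libraries a lower level in fewer cells and less RNA per cell cannot be told apart.

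Levels are given in TPM, a relative transcript abundance in which reads are divided by transcript length and so can be compared between genes. GAPDH, the glyceraldehyde-3-phosphate dehydrogenase gene, was the highest member in every library. Its level was 7602 TPM with siRNA 2, 6456 with siRNA 4 and 6584 with the control in HCC15, and 8655, 6456 and 7232 TPM in the same order in A427. It ranked 5 among 23686 genes in the HCC15 control library and 4 in the A427 control library. ALDOA, which encodes the main aldolase, and LDHB were the other members above 1000 TPM in every library, and 14 members stayed under 100 TPM in every library. Together the 17 enzymes of glycolysis and lactate formation made up 2.08% of all transcripts with siRNA 2, 1.96% with siRNA 4 and 1.91% with the control in HCC15. In A427 they made up 1.74%, 1.48% and 1.56% in the same order. All 3 HCC15 libraries lay above all 3 A427 libraries in this sum. Without GAPDH the lines stood further apart, with 1.25% to 1.32% of transcripts in HCC15 and 0.835% to 0.879% in A427.

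**Figure D1:**
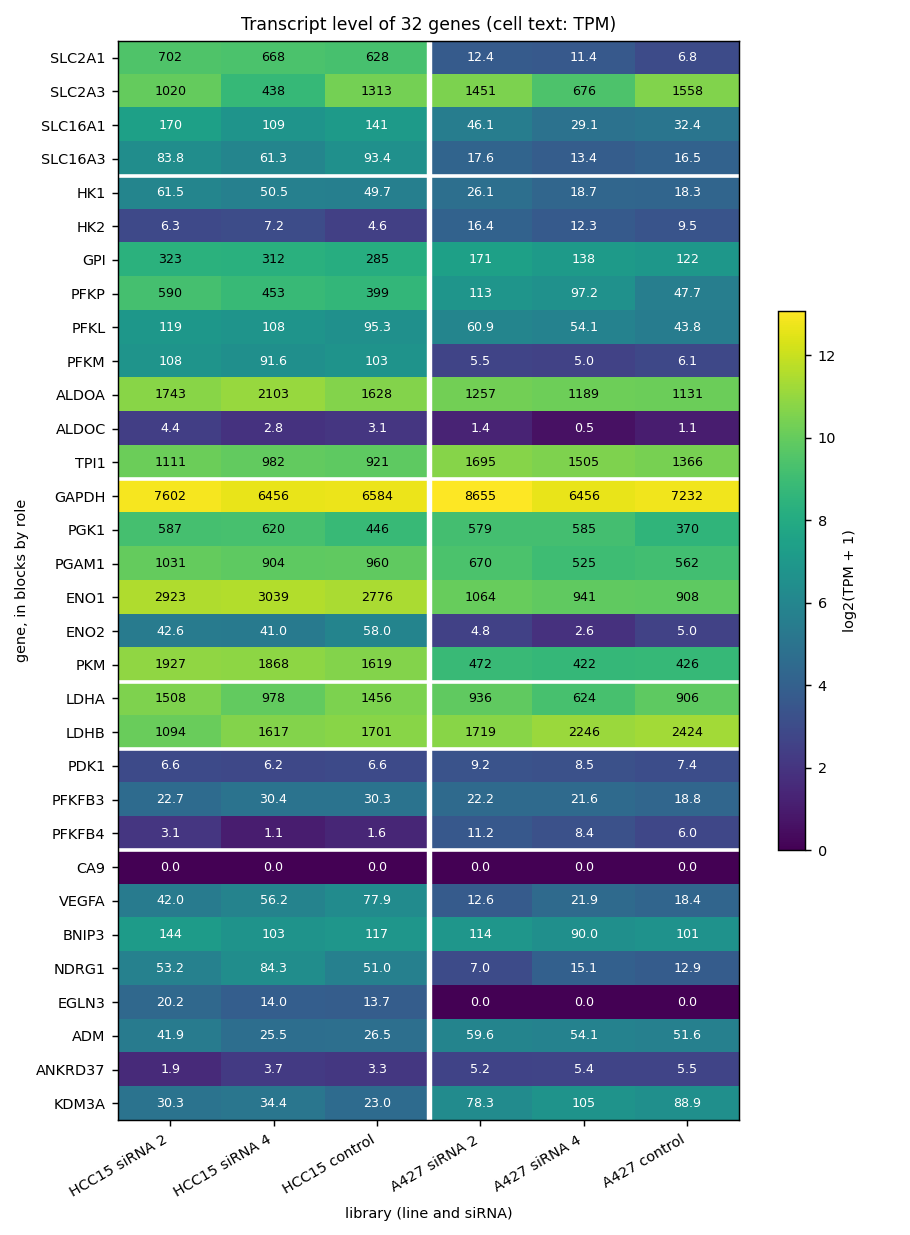
Transcript level of the 32 genes (rows, in blocks by role) in the 6 libraries (columns), with colour showing log2(TPM + 1) and the number in each cell the TPM. GAPDH is the brightest row, and SLC2A1, PFKM and EGLN3 differ most between the HCC15 columns on the left and the A427 columns on the right.

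CA9, which encodes a membrane carbonic anhydrase and is among the most strongly hypoxia-induced genes known, had 0 reads in all 6 libraries. The other hypoxia response genes ranged widely in level. BNIP3, a mitophagy receptor gene, lay at 103 to 144 TPM in HCC15 and 90.0 to 114 TPM in A427. ANKRD37, an ankyrin repeat gene induced by HIF, lay at 1.90 to 3.66 TPM in HCC15 and 5.19 to 5.53 TPM in A427. Among the flux regulators, PDK1, whose kinase shuts pyruvate out of the mitochondrial acetyl-CoA route, lay at 6.19 to 6.64 TPM in HCC15 and 7.40 to 9.17 TPM in A427. The 31 members other than CA9 all passed the filter of 10 reads in 2 libraries. EGLN3 passed it through its HCC15 libraries alone, so it had to differ between the lines.

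The lines differed at most members, and more of them were higher in HCC15. Against A427, 19 of the 30 members tested other than EGLN3 were higher in HCC15 and 8 were lower at an adjusted p under 0.05, in a table where 37.2% of the 14481 genes tested were higher and 39.3% were lower. The log2 fold changes of these 30 had a median of 0.80, and those of all genes tested a median of -0.03. The higher members covered both ends of the pathway, with glucose entry through SLC2A1, all 3 phosphofructokinases, enolase, pyruvate kinase and lactate export. Counted by levels alone, 18 of the 30 had all 3 HCC15 libraries above all 3 A427 libraries and 8 had all 3 below, where 29.8% and 37.8% of the genes tested did so. The ranges of GAPDH, PGK1, SLC2A3 and BNIP3 overlapped between the lines.

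Among the transporters, SLC2A1 had 702, 668 and 628 TPM with siRNA 2, siRNA 4 and control in HCC15, and 12.4, 11.4 and 6.81 TPM in A427. No library of either line came near the other line's range, and the log2 fold change was 6.17 (SE 0.18, adjusted p 2.19e-08), or 71.9-fold. The antisense gene SLC2A1-AS1 had at most 1.13% of the reads of SLC2A1, and whether counting used strand is not given. SLC2A3 encodes GLUT3, a glucose transporter of higher affinity. It stood at 1020.4, 438 and 1313 TPM with siRNA 2, siRNA 4 and control in HCC15, and at 1451, 676 and 1558 TPM in A427. These ranges overlapped, with the siRNA 4 library lowest in each line, and the log2 fold change between the lines was -0.36 (SE 0.11, adjusted p 0.0143). That call was lost without the A427 siRNA 4, HCC15 control or HCC15 siRNA 4 library, with an adjusted p of up to 0.11. The lactate exporters SLC16A1 (MCT1) and SLC16A3 (MCT4) were both higher in HCC15. SLC16A1 had 109 to 170.0 TPM in HCC15 and 29.1 to 46.1 TPM in A427, with a log2 fold change of 2.07 (SE 0.10, adjusted p 4.69e-07). SLC16A3 had 61.3 to 93.4 TPM in HCC15 and 13.4 to 17.6 TPM in A427, with a log2 fold change of 2.41 (SE 0.12, adjusted p 4.17e-07).

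**Figure D2:**
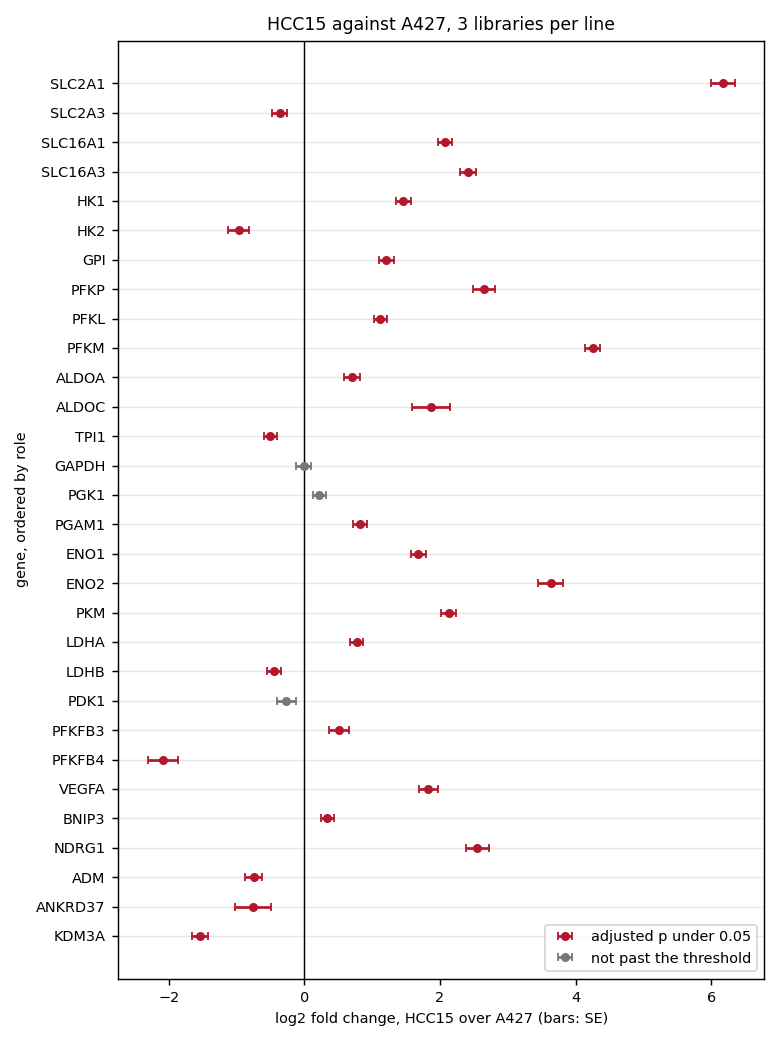
Log2 fold change of HCC15 over A427 (horizontal axis, points with SE bars) for 30 members in order of role, red where the adjusted p was under 0.05 and grey where it was not. SLC2A1 at 6.17 and PFKM at 4.25 lie farthest to the right and PFKFB4 at -2.09 farthest to the left, while EGLN3 is left out because its fitted fold depends on the prior count.

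In upper glycolysis 7 of 9 enzymes were higher in HCC15 and 2 were lower, where 37.2% of all genes tested were higher and 39.3% lower. PFKM, the muscle-type phosphofructokinase gene, had 108, 91.6 and 103 TPM with siRNA 2, siRNA 4 and control in HCC15, and 5.52, 5.01 and 6.07 TPM in A427. The ranges were far apart, and the log2 fold change of 4.25 (SE 0.11, adjusted p 1.52e-08) was second to that of SLC2A1 among the members other than EGLN3. The platelet-type gene PFKP was the most abundant phosphofructokinase, at 590.2, 453 and 399 TPM in HCC15 and 113, 97.2 and 47.7 TPM in A427, with a log2 fold change of 2.65 (SE 0.16). HK1 and HK2 encode hexokinases, which trap glucose in the cell, and went opposite ways. HK1 was higher in HCC15 by 1.46 on the log2 scale (SE 0.11), while HK2 stood at -0.97 (SE 0.15, adjusted p 0.000397). HK2 had 4.56 to 7.16 TPM in HCC15 and 9.52 to 16.4 TPM in A427, with no overlap. GPI, the glucose-6-phosphate isomerase gene, PFKL, the liver-type phosphofructokinase gene, and ALDOA were higher in HCC15 by 1.21, 1.12 and 0.70. ALDOC, a brain-type aldolase gene at 2.84 to 4.38 TPM in HCC15 and 0.52 to 1.45 TPM in A427, was higher by 1.86 (SE 0.28). TPI1, the triose-phosphate isomerase gene, was lower in HCC15 at 921 to 1111 TPM, against 1366 to 1695 TPM in A427, with a log2 fold change of -0.50 (SE 0.09, adjusted p 0.001).

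In lower glycolysis 4 of 6 enzymes were higher in HCC15 and none was lower, where 37.2% of all genes tested were higher and 39.3% lower. PKM, the pyruvate kinase gene, had 1927, 1868 and 1619 TPM with siRNA 2, siRNA 4 and control in HCC15, and 472, 422 and 426 TPM in A427. All HCC15 values lay far above the A427 values, with a log2 fold change of 2.13 (SE 0.11, adjusted p 4.6e-07). ENO1, the main enolase gene, had 2776 to 3039 TPM in HCC15 and 908 to 1064 TPM in A427, a log2 fold change of 1.68 (SE 0.11). ENO2, known as the neuron-specific enolase gene, had 41.0 to 58.0 TPM in HCC15 and 2.64 to 4.95 TPM in A427, a log2 fold change of 3.63 (SE 0.18). PGAM1, the phosphoglycerate mutase gene, was higher by 0.82 (SE 0.10). Its retrogene copy PGAM4 had at most 1.35% of the reads of PGAM1, and how the counting split reads between near-identical copies was not tested. PGK1 and GAPDH did not pass, with log2 fold changes of 0.22 (SE 0.10, adjusted p 0.0726) and -0.01 (SE 0.11, adjusted p 0.929). PGK1 lay close to the threshold, at an adjusted p of 0.0481 by DESeq2 and of 0.0214 by edgeR without the HCC15 siRNA 2 library. Without the A427 siRNA 2 library it was 0.025 by edgeR. Limma did not call PGK1. Nor did edgeR without the A427 control, A427 siRNA 4, HCC15 control or HCC15 siRNA 4 library (adjusted p up to 0.34).

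The lactate dehydrogenase subunits differed in opposite directions. LDHA, the M subunit gene, had 1508, 978 and 1456 TPM with siRNA 2, siRNA 4 and control in HCC15, and 936, 624 and 906 TPM in A427, a log2 fold change of 0.77 (SE 0.09, adjusted p 8.06e-05). LDHB, the H subunit gene, had 1094, 1617 and 1701 TPM in HCC15 and 1719, 2246 and 2424 TPM in A427, a log2 fold change of -0.45 (SE 0.10, adjusted p 0.00347). The line ranges of each gene did not overlap, although they lay close together for both. Of the regulators, PFKFB4 was lower in HCC15 at 1.05 to 3.14 TPM, against 5.97 to 11.2 TPM in A427, with a log2 fold change of -2.09 (SE 0.22). PFKFB3 and PFKFB4 encode enzymes that set fructose-2,6-bisphosphate, the activator of phosphofructokinase. PFKFB3 was higher in HCC15 by 0.51 (SE 0.15, adjusted p 0.0136). This call was lost without the A427 control, A427 siRNA 4, HCC15 control or HCC15 siRNA 4 library, with an adjusted p of up to 0.102. PDK1 did not pass (-0.27, SE 0.14, adjusted p 0.104).

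The hypoxia response genes did not share a direction, with 3 higher and 3 lower in HCC15 among the 6 tested other than EGLN3. Of all genes tested 37.2% were higher and 39.3% lower. EGLN3, the gene of an HIF prolyl hydroxylase that HIF itself induces, had 701, 489 and 469 reads with siRNA 2, siRNA 4 and control in HCC15, and 0, 1 and 1 reads in A427. Summed over libraries that is 1659 reads in HCC15 and 2 in A427, a ratio of 797 with an exact 95% interval of 220 to 6590 that covers counting error only. NDRG1, a stress-induced gene, had 53.2, 84.3 and 51.0 TPM in HCC15 and 6.99, 15.1 and 12.9 TPM in A427, with no overlap and a log2 fold change of 2.55 (SE 0.17). VEGFA, the vascular endothelial growth factor gene, had 42.0 to 77.9 TPM in HCC15 and 12.6 to 21.9 TPM in A427, a log2 fold change of 1.83 (SE 0.14). BNIP3 was higher by 0.34 (SE 0.10, adjusted p 0.0099). The histone demethylase gene KDM3A was lower in HCC15 at 23.0 to 34.4 TPM, against 78.3 to 105 TPM in A427, with a log2 fold change of -1.54 (SE 0.12). ADM, the gene of the vasodilator peptide adrenomedullin, was also lower (-0.75, SE 0.13), with 25.5 to 41.9 TPM in HCC15 and 51.6 to 59.6 TPM in A427. ANKRD37 was lower as well (-0.76, SE 0.27, adjusted p 0.0308). DESeq2 did not call ANKRD37 (adjusted p 0.162), and the edgeR call was lost without the A427 control, A427 siRNA 2, HCC15 control or HCC15 siRNA 2 library, with an adjusted p of up to 0.144.

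Because several steps are served by paralogs, the share of each paralog in the summed TPM of its family's members among the 32 genes was compared by library. This is a description without a test. SLC2A1 made up 40.8%, 60.4% and 32.4% of SLC2A1 plus SLC2A3 with siRNA 2, siRNA 4 and control in HCC15, and 0.844%, 1.65% and 0.435% in A427. The GLUT3 gene was therefore nearly the sole one of the pair in A427 RNA, while HCC15 carried both. HK2 made up 8.41% to 12.4% of HK1 plus HK2 in HCC15 and 34.2% to 39.6% in A427. HKDC1, a hexokinase gene outside the 32, is not in these shares, although its 15.55 to 33.78 TPM in HCC15 lay above HK2. By reads, which are not divided by length, the HK2 shares were 15.7% to 22.3% in HCC15 and 51.3% to 57.1% in A427, so which hexokinase led in A427 depended on the scale. PFKP led the phosphofructokinases in all libraries, at 66.9% to 72.3% in HCC15 and 48.9% to 62.9% in A427, although by reads PFKL had 46.7% and PFKP 45.9% in the A427 control library. PFKM made up 13.2% to 17.2% in HCC15 and 3.09% to 6.22% in A427. LDHB made up 42.0%, 62.3% and 53.9% of LDHA plus LDHB with siRNA 2, siRNA 4 and control in HCC15, and 64.7%, 78.3% and 72.8% in A427. Within each line the LDHB share was lowest with siRNA 2 and highest with siRNA 4, and every A427 library lay above every HCC15 library. By reads the LDHB shares were 28.7%, 47.8% and 39.3% in HCC15 and 50.5%, 66.6% and 59.8% in A427, in the same order of libraries.

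**Figure D3:**
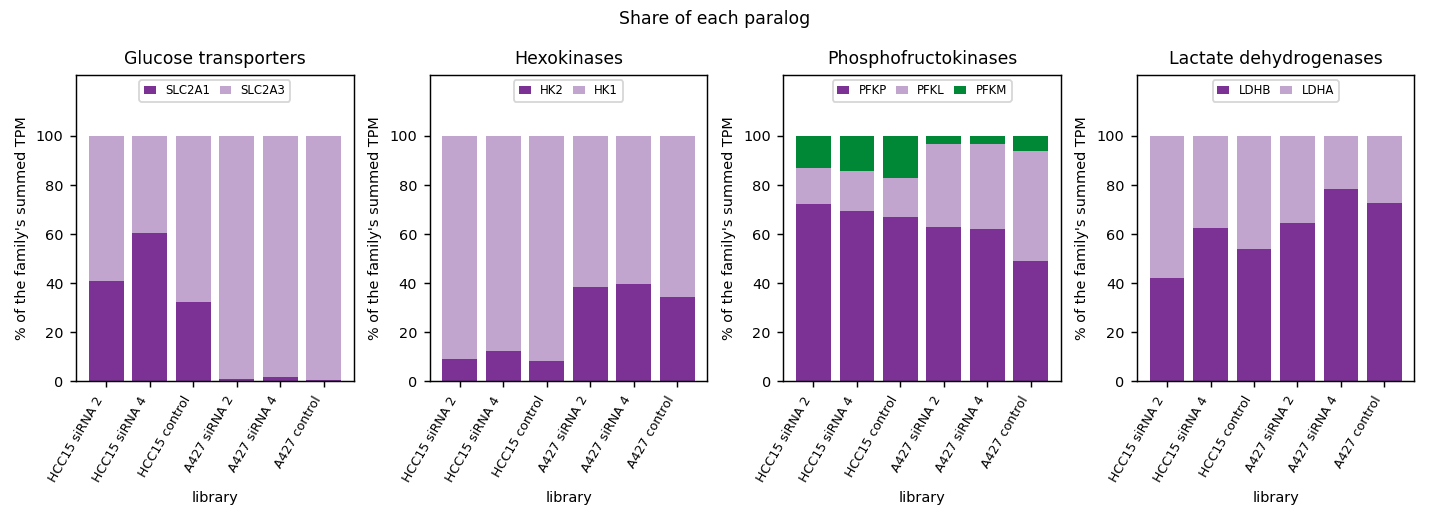
Share of each paralog in the summed TPM of its family's members among the 32 genes (vertical axis, percent) in the 6 libraries. Panels show glucose transporters, hexokinases (HK1 and HK2 only), phosphofructokinases and lactate dehydrogenases. SLC2A1 takes 32.4% to 60.4% of its bar in HCC15 and at most 1.65% in A427, and LDHB stands lowest with siRNA 2 in both lines.

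Silencing of LGR6 was the question of the design. With both LGR6 siRNAs set against control across the lines, edgeR called 0 of the 31 members tested, as it called 0.0% of all 14481 genes. LGR6 itself did not pass in this fit, at -2.29 (SE 0.47, adjusted p 0.17), so a gene that did change can go uncalled. Against control it passed with siRNA 2 (-2.87, SE 0.36, adjusted p 0.00379) and with siRNA 4 (-1.76, SE 0.32, adjusted p 0.00758). At an unadjusted p under 0.05 edgeR found 3 of the 31, PGK1, PFKP and HK2, and 1512 of all 14481 genes, a similar share. DESeq2 called 1 member, PGK1, where it called 249 of all 14481 genes higher and 138 lower. Limma on log2(TPM + 1) called 0 members. The phosphoglycerate kinase gene PGK1 had 587 and 619.6 TPM with siRNA 2 and siRNA 4 in HCC15, against 446 TPM with the control. In A427 it had 579 and 585 TPM with siRNA 2 and siRNA 4, against 370.3 TPM with the control. It lay above the control of its own line in 4 of 4 LGR6 siRNA libraries, with a log2 fold change of 0.53 (SE 0.15, adjusted p 0.324). PFKP lay above control in the same 4 libraries, with a log2 fold change of 0.72 (SE 0.21, adjusted p 0.334). HK2 was above control in all 4 as well (0.56, SE 0.19, adjusted p 0.388), with 6.34 and 7.16 TPM in HCC15, against 4.56 TPM with the control, and 16.4 and 12.3 TPM in A427, against 9.52 TPM with the control. PFKL stood at 0.30 (SE 0.13, adjusted p 0.488).

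The siRNA numbers name the same reagent in both lines, and with the siRNA number as a block edgeR called 3 members across the lines. PGK1 and PFKP were higher and SLC2A3 was lower, where 3.31% of all genes were called higher and 5.65% lower. The blocked fit tests the mean of both siRNA effects from line plus siRNA, so disagreement between the siRNAs is not in its spread. Its calls are therefore not independent of the single-siRNA calls below. The blocked log2 fold changes were 0.53 for PGK1 (SE 0.11, adjusted p 0.0236), 0.71 for PFKP (SE 0.17, adjusted p 0.037) and -0.83 for SLC2A3 (SE 0.11, adjusted p 0.00603). HK2 did not pass with the block (adjusted p 0.071). SLC2A3 was below control in 4 of 4 LGR6 siRNA libraries, but by unequal amounts. Its log2 ratio to the control of its own line was -0.47 in HCC15 and -0.13 in A427 with siRNA 2, and -1.52 in HCC15 and -1.20 in A427 with siRNA 4. The siRNAs were therefore also compared with control one at a time, over the same 2 control libraries.

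**Figure D4:**
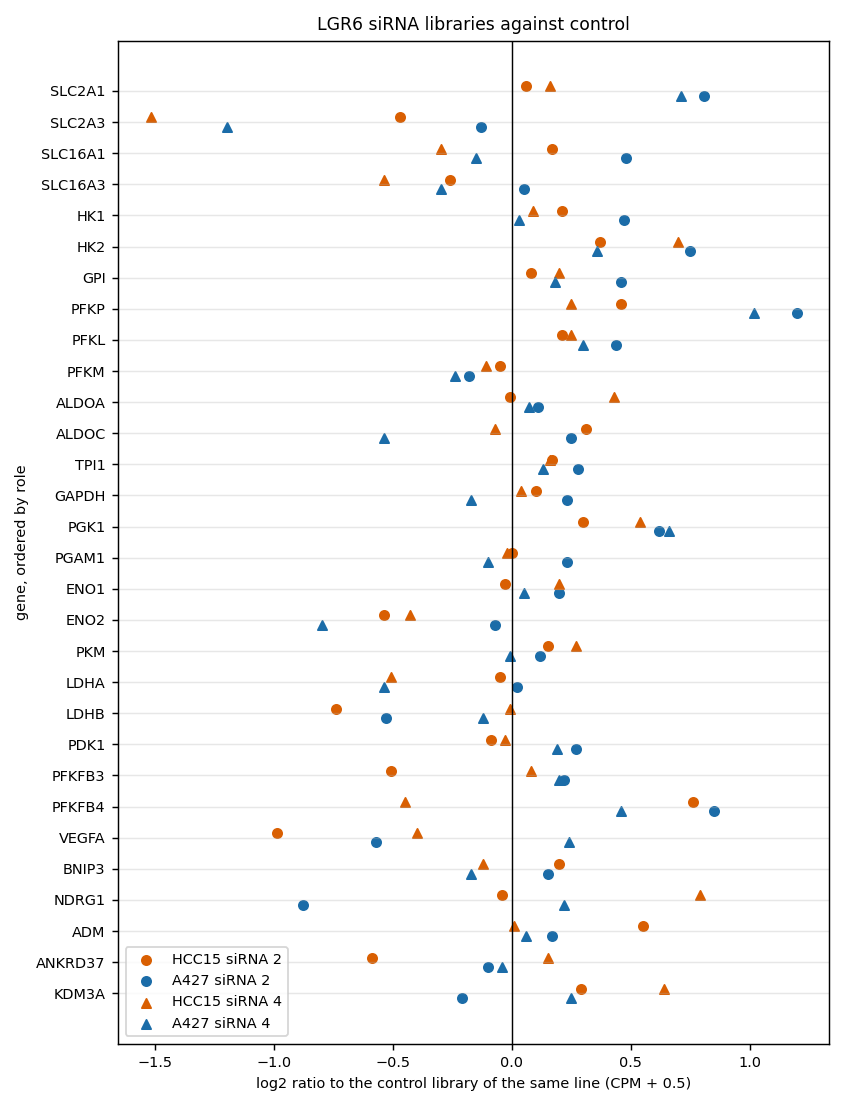
Log2 ratio of each LGR6 siRNA library to the control library of its own line (horizontal axis, CPM + 0.5) for 30 members, with circles for siRNA 2, triangles for siRNA 4, orange for HCC15 and blue for A427. SLC2A3 lies left of 0 in all 4 libraries and PGK1, PFKP and HK2 lie right of 0 in all 4.

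With siRNA 2, LDHB and VEGFA fell and PFKP rose, where 2.96% of all genes were higher and 4.66% lower. LDHB had 1094 TPM with siRNA 2 in HCC15, against 1701 TPM with the control, and 1719 TPM with siRNA 2 in A427, against 2424 TPM with the control. It was lower in both lines, with a log2 fold change of -0.63 (SE 0.13, adjusted p 0.0235). VEGFA had 42.0 TPM with siRNA 2 in HCC15, against 77.9 TPM with the control, and 12.6 TPM with siRNA 2 in A427, against 18.4 TPM with the control. Both lines again went down, and the log2 fold change was -0.81 (SE 0.17, adjusted p 0.0271). PFKP had 590.2 TPM with siRNA 2 in HCC15, against 399 TPM with the control, and 113 TPM with siRNA 2 in A427, against 47.7 TPM with the control. It was higher in both lines, more so in A427 by ratio, with a log2 fold change of 0.81 (SE 0.19, adjusted p 0.0384). PGK1 did not pass by edgeR (0.46, SE 0.12, adjusted p 0.0609), although DESeq2 and limma called it (adjusted p 0.00817 and 0.0277). Limma did not call VEGFA (adjusted p 0.0681). The LDHB call was lost without the A427 control, HCC15 control or HCC15 siRNA 2 library (adjusted p up to 0.334). The calls of VEGFA and PFKP were lost without any of these or the A427 siRNA 2 library (adjusted p up to 0.404 and 0.318).

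With siRNA 4, SLC2A3 and LDHA fell and PGK1 rose, where 4.58% of all genes were higher and 7.95% lower. SLC2A3 had 438 TPM with siRNA 4 in HCC15, against 1313 TPM with the control, and 676 TPM with siRNA 4 in A427, against 1558 TPM with the control. It was the lowest library of each line, with a log2 fold change of -1.36 (SE 0.14, adjusted p 0.00142). The close copy SLC2A14 had 15 to 113 reads per library, at most 0.17% of the reads of SLC2A3. LDHA had 978 TPM with siRNA 4 in HCC15, against 1456 TPM with the control, and 624 TPM with siRNA 4 in A427, against 906 TPM with the control. It was also lowest with siRNA 4 in each line, with a log2 fold change of -0.52 (SE 0.11, adjusted p 0.0221). PGK1 was higher in both lines (0.60, SE 0.12, adjusted p 0.0181), and its sister gene PGK2 had 0 reads. PFKP did not pass by edgeR (0.61, SE 0.19, adjusted p 0.0701), while DESeq2 called it (adjusted p 0.0225). The call of SLC2A3 was lost without the HCC15 control library alone (adjusted p 0.0661). PGK1 was no longer called without the A427 control, HCC15 control or HCC15 siRNA 4 library (adjusted p up to 0.249), and LDHA without any of these or the A427 siRNA 4 library (up to 0.309). The summed level of 5 epithelial markers was also lowest with siRNA 4, at 3610 TPM in HCC15, against 6010 TPM with the control, and at 989 TPM in A427, against 1260 TPM with the control, and its part in these results was not tested.

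Set directly against each other, the reagents differed at 6 members by edgeR. With siRNA 4 against siRNA 2, NDRG1, VEGFA and LDHB were higher and SLC2A3, LDHA and SLC16A1 were lower, where 7.7% of all genes were higher and 8.84% lower. SLC2A3 had the largest difference of these 6, with 438 TPM with siRNA 4 and 1020.4 TPM with siRNA 2 in HCC15, and 676 TPM with siRNA 4 and 1451 TPM with siRNA 2 in A427. Its log2 fold change was -1.06 (SE 0.13, adjusted p 0.0025), and it stayed called whichever library was left out (adjusted p up to 0.0488). NDRG1 had 84.3 TPM with siRNA 4 and 53.2 TPM with siRNA 2 in HCC15, and 15.1 TPM with siRNA 4 and 6.99 TPM with siRNA 2 in A427. It was higher with siRNA 4 in both lines by 0.95 (SE 0.20, adjusted p 0.0155), but not without the A427 siRNA 2 or HCC15 siRNA 4 library (up to 0.191). The lactate dehydrogenase subunits moved apart, LDHB by 0.57 (SE 0.13, adjusted p 0.0193) and LDHA by -0.51 (SE 0.11, adjusted p 0.0205). The LDHB call was lost without the A427 control, HCC15 control, HCC15 siRNA 2 or HCC15 siRNA 4 library (up to 0.203), and the LDHA call without any one of the 6 libraries (0.0519 to 0.126). SLC16A1, which carries lactate, had 109 TPM with siRNA 4 and 170.0 TPM with siRNA 2 in HCC15, and 29.1 TPM with siRNA 4 and 46.1 TPM with siRNA 2 in A427. It was lower with siRNA 4, with a log2 fold change of -0.55 (SE 0.12, adjusted p 0.0207), but not without the A427 siRNA 2, A427 siRNA 4 or HCC15 siRNA 4 library (up to 0.136). VEGFA had 56.2 TPM with siRNA 4 and 42.0 TPM with siRNA 2 in HCC15, and 21.9 TPM with siRNA 4 and 12.6 TPM with siRNA 2 in A427. It was higher with siRNA 4 by 0.71 (SE 0.17, adjusted p 0.0246), but not by limma (adjusted p 0.0718) and not without the A427 siRNA 2, A427 siRNA 4, HCC15 siRNA 2 or HCC15 siRNA 4 library (up to 0.152). Limma also called GAPDH (-0.33, adjusted p 0.0333) and BNIP3 (-0.41, adjusted p 0.0367) lower with siRNA 4, which edgeR did not (adjusted p 0.28 and 0.101).

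**Figure D5:**
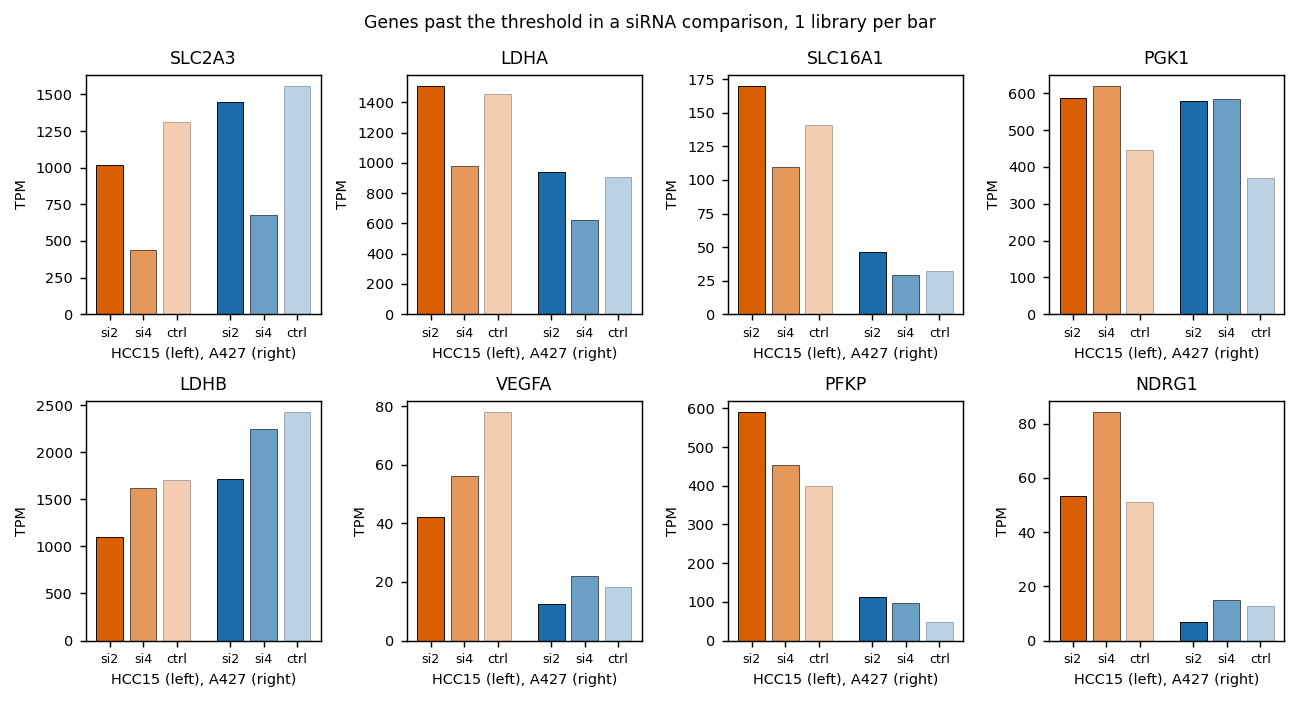
TPM (vertical axis, each panel starting at 0) of the 8 members past the threshold in at least 1 of the comparisons of single siRNAs, 1 bar per library, with siRNA 2, siRNA 4 and control (ctrl) of HCC15 in orange and of A427 in blue. SLC2A3 and LDHA are lowest with siRNA 4 in both lines, LDHB is lowest with siRNA 2, and both PGK1 control bars are the lowest of their line.

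Whether the lines responded differently was tested as the response in HCC15 minus the response in A427. Of the 31 members 0 were called, as 0.0% of all genes were. By edgeR 0 members had an unadjusted p under 0.05, and 78 of all 14481 genes did. DESeq2 and limma also called 0, and so did edgeR with the siRNA number as a block. With the block 3 members had an unadjusted p under 0.05, and 243 of all 14481 genes did. The members with the smallest p were PFKP, at -0.76 (SE 0.35, adjusted p 1.0), SLC2A1, at -0.68 (SE 0.35, adjusted p 1.0), KDM3A, at 0.44, and VEGFA, at -0.56. PFKP stood above control by 0.46 with siRNA 2 and 0.25 with siRNA 4 in HCC15, and by 1.20 and 1.02 in A427, as log2 ratios of CPM. SLC2A1 stood above control by 0.06 and 0.16 in HCC15, and by 0.81 and 0.71 in A427, where its level was only 6.81 to 12.4 TPM.

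Genes around these pathways were counted from 4 further lists. In HCC15 against A427, 6 of 15 tested genes of the HIF machinery were higher and 6 lower, and 10 of 25 other hypoxia-induced genes were higher and 10 lower. Among other enzymes and transporters of glucose and pyruvate 14 of 25 were higher and 9 lower, and in the pentose phosphate pathway 5 of 7 were higher and 2 lower. These counts include genes near 0 in 1 line, whose direction was largely set by the read filter. HKDC1, FBP1, SLC2A10 and ARNT2 of the HIF list reached at most 0.08, 0.0, 0.02 and 0.04 TPM in A427, and LDHD at most 0.16 TPM in HCC15. CA12 of the hypoxia list, counted as higher, reached at most 0.17 TPM in A427. Over all genes tested 37.2% were higher and 39.3% lower, so the counts of the HIF and hypoxia lists lay near that background. EPAS1, which encodes HIF-2 alpha, had 39.26 to 125.7 TPM in HCC15 and 2.13 to 2.23 TPM in A427, a log2 fold change of 5.03 (SE 0.26, adjusted p 4.93e-07). HIF1A, the gene of HIF-1 alpha, had 48.98, 33.37 and 54.35 TPM with siRNA 2, siRNA 4 and control in HCC15, and 93.99, 63.78 and 103.95 TPM in A427. It was therefore lower in HCC15 in every library, the reverse of EPAS1. HKDC1, a further hexokinase gene, had 15.55 to 33.78 TPM in HCC15 and 0.02 to 0.08 TPM in A427, where it was too low for a fold.

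In the silencing comparison across both lines edgeR called 0 genes of the 4 lists, and 0.0% of all genes. At an unadjusted p under 0.05 it found 1 of 15, 3 of 25, 3 of 25 and 2 of 7 genes of the HIF, hypoxia, glucose and pentose lists. Over all 14481 genes it found 1512. DESeq2 called PCK2 and PGLS lower and RPIA higher, where it called 249 of all genes higher and 138 lower, and limma called 0. With the siRNA number as a block, where 3.31% of all genes were higher and 5.65% lower, edgeR called 1 higher and 2 lower, 1 higher and 1 lower, 1 higher and 3 lower, and 1 higher and 1 lower in these lists, PDK4 and HIF1A among the lower. With siRNA 2 against control, where 2.96% of all genes were higher and 4.66% lower, ARNT of the HIF machinery rose and HIF1AN and VHL fell, BNIP3L and GYS1 of the hypoxia list fell, PCK2 fell and RPIA rose. Each of these calls was lost without the HCC15 control or HCC15 siRNA 2 library, and all but that of HIF1AN also without the A427 control library (adjusted p up to 0.404), while VHL, BNIP3L, GYS1 and PCK2 were lost without the A427 siRNA 2 library too. Limma did not call VHL, BNIP3L or GYS1. With siRNA 4 against control, HIF1A fell by 0.67 on the log2 scale (SE 0.11, adjusted p 0.00924), though not without the A427 control, HCC15 control or HCC15 siRNA 4 library (adjusted p up to 0.161). Of the hypoxia list MIF rose and PLOD2 fell with siRNA 4, and of the pentose list RPIA rose and PGLS fell. These 4 calls were lost without the A427 control, HCC15 control or HCC15 siRNA 4 library (adjusted p up to 0.381), and those of MIF and PGLS also without the A427 siRNA 4 library. In the glucose and pyruvate list 2 of 25 genes rose and 6 fell with siRNA 4, where 4.58% of all genes were higher and 7.95% lower. HKDC1, which is among those that rose, had 33.78 TPM with siRNA 4 in HCC15, against 16.07 TPM with the control. In A427 HKDC1 reached at most 0.08 TPM, and DESeq2 and limma did not call it. PDK4, a pyruvate dehydrogenase kinase gene, had 14.18 TPM with siRNA 4 in HCC15, against 81.84 TPM with the control, and 134.74 TPM with siRNA 4 in A427, against 460.32 TPM with the control. Its log2 fold change of -2.09 (SE 0.18, adjusted p 0.00121) stayed called whichever library was left out. ENO3, the muscle enolase gene, fell by 1.66 with siRNA 4 (SE 0.21, adjusted p 0.00286), though not without the HCC15 control library (adjusted p 0.0772). With siRNA 4 against siRNA 2, where 7.7% of all genes were higher and 8.84% lower, the lists had 2 higher and 3 lower, 2 higher and 4 lower, 1 higher and 7 lower, and 0 called, in the order given above. The 1 higher gene of the glucose and pyruvate list was HKDC1, nearly absent in A427, and limma did not call it. VHL, whose product marks HIF for degradation, was higher with siRNA 4 than with siRNA 2 by 1.08 (SE 0.15, adjusted p 0.0033) and stayed called whichever library was left out. It had 66.32 TPM with siRNA 4 and 38.95 TPM with siRNA 2 in HCC15, and 55.24 TPM with siRNA 4 and 24.37 TPM with siRNA 2 in A427. For the difference of response between the lines, edgeR called 0 genes of the 4 lists, with 0 at an unadjusted p under 0.05.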

How the data were processed

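RNA was sequenced from 6 libraries, 1 per line and siRNA, from column-purified, DNase-treated RNA, and per the labels' protocols the kit was KAPA mRNA HyperPrep. Per the submitters' processing notes, FastQC 0.11.1, STAR 2.5.3a, RSEM 1.3.3 and the build hg19 were used. Annotation and strand setting are not given in the sources used here. Deposited by the authors were expected counts per gene, of which 5.75% to 6.29% per library were not whole, and TPM for the same 23686 symbols. Expected counts were rounded for the tests, and the deposited TPM served for levels and shares.

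Tests ran over all 14481 genes that reached 10 reads in 2 or more libraries, with edgeR 4.0.16 (quasi-likelihood, TMM; R 4.3.3), and p-values were adjusted by Benjamini-Hochberg with a threshold of 0.05. All adjusted p-values are from edgeR unless another tool is named. Line and single-siRNA contrasts came from line plus siRNA, silencing across lines from line plus arm, and the difference of response from line by arm. With the block, silencing was the mean of both siRNA effects from line plus siRNA, and the difference of response gained a term for siRNA 4. Log2 ratios of single libraries used CPM on the TMM scale plus 0.5. The alternatives were DESeq2 1.42.0, edgeR with RLE factors, no read filter, limma 3.58.1 on log2(TPM + 1) for genes of at least 1 TPM in 2 libraries, and leaving out each library.

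Per the labels, a siRNA number is 1 reagent used in both lines, which pairs the samples. The difference of siRNA 4 minus siRNA 2 correlated between the lines at 0.594 over 14481 genes and 0.66 over the 11656 genes averaging 100 reads or more. Results blocked by siRNA number are therefore given where they changed a call. Any pair of libraries differed by a chi-square of at least 57 per degree of freedom, so none was a duplicate. Intervals cover counting error only.

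The members and lists were chosen with earlier results of these data known. All members could be named, with fold changes for those past the threshold or, where fewer than 4 passed, for up to 4 with the smallest p. Of each other list up to 4 genes with the largest change past the threshold could be given values. Naming SLC2A3 in the blocked fit, and the genes that make up a small count, was a choice made with their values in view. Some genes of the other lists are not reported here by name.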

Additional observations from a re-analysis of the deposited data

Results flagged for a closer look

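PDK1 encodes a kinase that inhibits pyruvate dehydrogenase, and its small log2 ratios to control had opposite signs in the lines. Both LGR6 siRNA libraries lay below the control library in HCC15, by log2 ratios of -0.09 with siRNA 2 and -0.03 with siRNA 4, and both lay above it in A427, by 0.27 and 0.19. The response in HCC15 minus that in A427 was -0.30 on the log2 scale (SE 0.38), with an unadjusted p of 0.46 and an adjusted p of 1.0 by edgeR, so the difference did not pass the test.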

How the results depend on the processing

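For HCC15 against A427, 28 to 29 of the 31 members tested, EGLN3 included, passed under the other tools, normalisation and filter, and 25 to 28 when a library was left out. EGLN3 had to differ, and most genes passed as well. DESeq2 called 5207 of all 14481 genes higher and 5245 lower, and limma called 4602 of 13569 genes higher and 5607 lower. The matching counts of all genes without a library are not given. GAPDH had no steady sign between the lines. Its log2 fold change was 0.01 with RLE factors and with DESeq2 and 0.02 without the filter, and when a library was left out it lay between -0.11 and 0.07, being 0.03 without the A427 control, 0.04 without the HCC15 control, 0.06 without A427 siRNA 2 and 0.07 without HCC15 siRNA 2. For silencing across both lines, 0 members passed by edgeR, 1 by DESeq2, and 3 under a replicate block by siRNA number, and 0 when any library was left out. The block changed no call of the difference of response. When a library was left out, 0 to 4 members passed for siRNA 2 against control, 0 to 3 for siRNA 4 against control and 1 to 4 for siRNA 4 against siRNA 2, where 3, 3 and 6 passed with all libraries. These fits have fewer samples. Without a control library the difference of response could not be fitted. PGK1 passed between the lines without the filter (adjusted p 0.0492). No other member's direction turned among the fold changes recomputed. Depth limits CA9, LGR6 in A427 and EGLN3 in A427, and 1 library per line and siRNA limits every silencing result.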
